A study of Mus musculus with 6 samples.

Results

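Messenger RNA of 7 enzymes of cholesterol synthesis was followed in testis cells of mice that have or lack the protein MAPS, a protein specific to male pachytene cells according to the title of the series. The genes were chosen by name, as enzymes of sterol synthesis, with earlier results of these data known: Hmgcs1, Idi1, Fdps, Fdft1, Sqle, Lss and Cyp51. All 7 were found by symbol among the 54532 genes of each library, and 6 of them were abundant enough to be tested.

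The cells are labelled as pachytene cells purified by STA-PUT, a sedimentation method that sorts cells by size, from mice of about 80 postnatal days. The genotypes compared were wild type (WT), MAPS KO (KO) and MAPS EE-KO (EE_KO), the last labelled as MAPS overexpression in KO background, so that KO and EE_KO share the deletion. Each genotype has 2 libraries, from 3 mice of identical genotype per group and 2 independent experiments. Pooling of mice within a library, what drives the MAPS transgene and the meaning of EE were not stated in the sources used here. The p-values therefore measure only the spread between these libraries, which may be partly technical.

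Cholesterol is built from acetyl-CoA. In the mevalonate arm HMGCS1 condenses acetoacetyl-CoA with acetyl-CoA, IDI1 isomerises isopentenyl diphosphate, and FDPS joins the isoprene units into farnesyl diphosphate. FDFT1, squalene synthase, then commits farnesyl diphosphate to sterols, SQLE oxidises squalene, LSS closes the rings to lanosterol, and CYP51 removes a methyl group from lanosterol to give the sterol known as FF-MAS, a meiosis-activating sterol that the gonads contain. In most tissues the transcription factor SREBP-2 raises these enzymes together when sterols are scarce. In the testis, Leydig cells turn cholesterol into testosterone, and germ cells need it for membranes.

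Depth was similar in all libraries: the reads recovered from the deposited values numbered 14178387 to 16565238 on genes, and 279 to 6344 on each of the 6 tested enzymes. Fdps had only 16 to 77 reads per library. The divisors behind the deposited values did not follow these reads: they came to 13999593 and 15135992 in WT, 17373637 and 17966255 in KO and 14642858 and 14966620 in EE_KO, so KO values were scaled down against WT at like depth. The labelled cell type was checked against its markers. Of the pachytene markers, 8 of 8 were lower in KO than in WT, by 1.51-fold (Sycp3) to 57.6-fold. Of the spermatid markers, 8 of 8 were lower too, by 7.40- to 502-fold. In KO, 8 of 8 Leydig markers rose by 11.5- to 54.0-fold and 10 of 10 Sertoli markers by 10.97- to 18.8-fold, and the 6 tested of 7 spermatogonial markers rose as well, as did the 4 tested of 6 macrophage markers and the 3 tested of 5 peritubular and endothelial markers. Of the markers too low to test, Gfra1 of spermatogonia had means of 1.08 FPKM in WT and 0.433 in KO and Adgre1 of macrophages 0.473 and 0.374. Among the tested ones, Lhcgr, Zbtb16, Cd14, C1qa, Lyz2, Pdgfra and Cdh5 reached the mean of 1 FPKM needed for a test only through KO. That favours higher values there. Summed over the list, Leydig markers came to 60.4 and 109.9 FPKM in WT, 2231 and 2138 in KO, and 179 and 84.3 in EE_KO, with none at 0. Sertoli markers summed to 306 and 319 FPKM in WT, 4430 and 4268 in KO, and 498 and 268 in EE_KO. Pachytene markers summed to 5670 and 5160 FPKM in WT, 211 and 253 in KO, and 4907 and 5266 in EE_KO. For spermatid markers the sums were 1461 and 2922 FPKM in WT, 17.7 and 19.0 in KO, and 1738 and 2467 in EE_KO. The part of these marker changes in the results on the enzymes was not tested, and in such bulk samples fewer cells of a type and less RNA per cell cannot be told apart.

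In KO the enzymes split. Hmgcs1, Lss and Cyp51 were 2.52- to 3.71-fold higher than in WT, while Idi1, Fdft1 and Sqle fell, Fdft1 to 15.4% of WT. In EE_KO all 6 tested enzymes stood between 92.7% and 109% of WT. Levels are FPKM (fragments scaled to the length of the gene and to a divisor of the library that stands for its size), means carry the SD of n = 2 libraries, and log2 changes are of FPKM + 1, with limma's standard error (SE) and its Benjamini-Hochberg adjusted p over all 15368 genes tested.

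**Figure D1:**
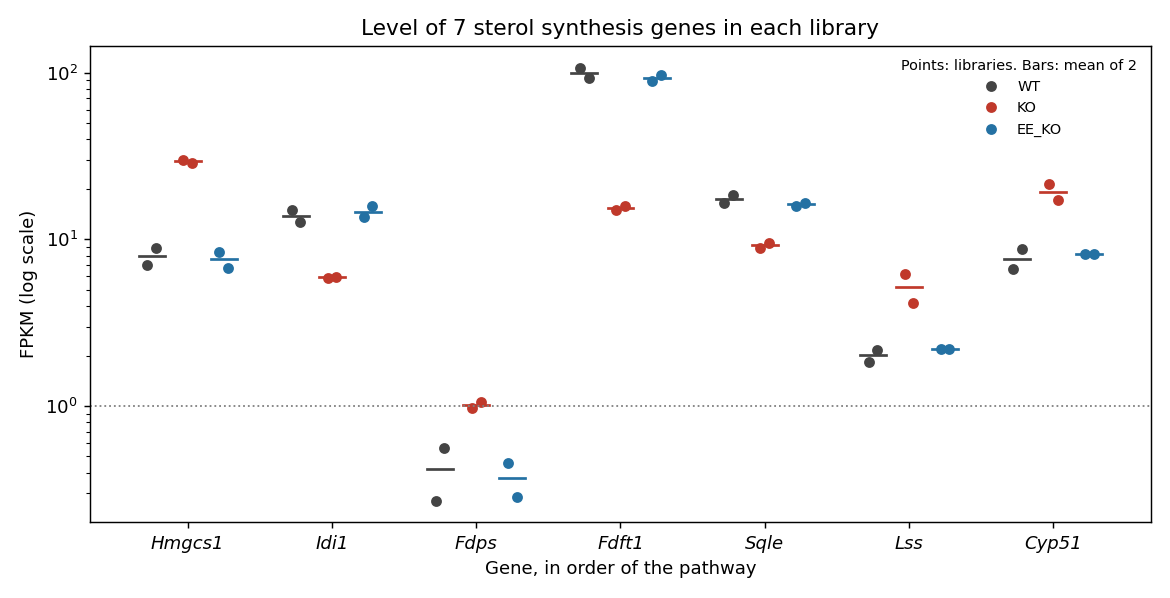
FPKM (log axis) of the 7 enzymes in each library, with points for libraries, short bars for the mean of 2, and a dotted line at 1 FPKM, the mean level that a gene needed to be tested. Hmgcs1, Lss and Cyp51 lie higher and Idi1, Fdft1 and Sqle lower in KO than in WT and EE_KO, and Fdps lies at or near the line or below it in every library.

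Hmgcs1 (ENSMUSG00000093930, GRCm38 chromosome 13, 119690379 to 119708260, plus strand, 11 merged exons) encodes the enzyme that makes HMG-CoA. It read 7.01 and 8.84 FPKM in the WT libraries, 30.04 and 28.8 in KO and 8.46 and 6.70 in EE_KO. Both KO libraries were above all others, and WT and EE_KO overlapped. The KO mean of 29.4 ± 0.844 was 3.71-fold that of WT (7.93 ± 1.30), a log2 change of 1.78 (SE 0.15, adjusted p = 1.17e-05). This was the largest rise among the 6 tested enzymes.

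Cyp51 (ENSMUSG00000001467, chromosome 5, 4081145 to 4104746, minus strand, 10 merged exons) read 6.60 and 8.75 FPKM in WT, 21.6 and 17.1 in KO and 8.17 and 8.16 in EE_KO. It stood 2.52-fold higher in KO than in WT with means of 19.3 ± 3.14 and 7.68 ± 1.52 and a log2 change of 1.23 (SE 0.17, adjusted p = 0.000164). Lss (ENSMUSG00000033105, chromosome 10, 76531588 to 76557138, plus strand, 21 merged exons), the cyclase just before Cyp51, read 1.85 and 2.18 FPKM in WT, 6.23 and 4.14 in KO and 2.19 and 2.21 in EE_KO. Its KO mean of 5.18 ± 1.48 was 2.57-fold that of WT (2.01 ± 0.235), a log2 change of 1.02 (SE 0.19, adjusted p = 0.00121). For both genes the KO libraries lay above every WT and EE_KO library.

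Fdft1 (ENSMUSG00000021273, chromosome 14, 63145150 to 63179578, minus strand, 11 merged exons) moved the other way and by more than any other of the enzymes. The WT libraries read 107.2 and 92.7 FPKM, the KO libraries 15.0 and 15.8, and the EE_KO libraries 89.2 and 96.6. In KO it was 6.50-fold lower with means of 15.4 ± 0.583 and 99.9 ± 10.3 and a log2 change of -2.62 (SE 0.11, adjusted p = 3.74e-07). WT and EE_KO overlapped and both KO libraries were far below them.

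Idi1 (ENSMUSG00000058258, chromosome 13, 8885501 to 8892451, plus strand, 5 merged exons) read 15.0 and 12.6 FPKM in WT, 5.91 and 5.98 in KO and 13.6 and 15.8 in EE_KO. It fell to 43.0% of WT, with means of 5.94 ± 0.0496 and 13.8 ± 1.69 and a log2 change of -1.09 (SE 0.14, adjusted p = 0.000107). Sqle (ENSMUSG00000022351, chromosome 15, 59315077 to 59331192, plus strand, 11 merged exons), which adds the oxygen that LSS needs, read 16.5 and 18.4 FPKM in WT, 8.92 and 9.48 in KO and 15.9 and 16.5 in EE_KO. It fell to 52.7% of WT, with means of 9.20 ± 0.391 and 17.5 ± 1.32 and a log2 change of -0.86 (SE 0.12, adjusted p = 0.000166). With TPM, which sets all libraries to the same sum, the change of Sqle was -0.47 (adjusted p = 0.0112). By FPKM it was the smallest change of the 6 tested enzymes, and the KO libraries still lay below all others.

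Fdps (ENSMUSG00000059743, chromosome 3, 89093588 to 89101959, minus strand, 8 merged exons) was too low to be tested, with 0.272 and 0.565 FPKM in WT, 0.979 and 1.05 in KO and 0.454 and 0.286 in EE_KO. Its KO libraries lay above the others, with a mean 2.43-fold that of WT (1.02 ± 0.0526 against 0.418 ± 0.208). With no filter on low values, limma gave a log2 change of 0.51 for it (adjusted p = 0.0360). The value is uncertain, because 76.8% of the longest coding transcript of Fdps matched other annotated genes at 95% identity or more, all of them processed pseudogenes. One of these, Gm3571 on chromosome 10, read more than Fdps itself in every library, with 2.43 and 1.93 FPKM in WT, 5.72 and 5.27 in KO and 0.838 and 1.39 in EE_KO. Fdps also shares 1124 of its 4208 exonic bases with Gm43738 on the same strand. The sources used here do not say how reads that match several genes were counted.

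The other enzymes have fewer such copies. Pseudogenes matched 33.7% of the Fdft1 transcript and 22.6% of the Idi1 transcript, and those of Fdft1 and Idi1 read at most 1.26 FPKM in any library; Hmgcs1, Sqle, Lss and Cyp51 had none. Fdft1 shares 774 of its 4227 exonic bases with Ctsb on the other strand. Ctsb, which encodes a lysosomal protease, read 2.90 and 3.19 FPKM in WT, 70.1 and 60.5 in KO and 4.76 and 2.63 in EE_KO, so it moved against Fdft1. Cyp51 shares 166 bases with Akap9, also on the other strand, which read 1.91 and 2.91 FPKM in WT and 7.30 and 6.42 in KO. Lss shares 381 bases with 4930483K19Rik on the other strand, which read 1.56 and 1.07 FPKM in WT and 0.225 and 0.233 in KO. Hmgcs1 shares 557 bases with Gm48342 and Idi1 323 bases with Gm48574, again on the other strand. Both of these read at most 0.273 FPKM in any library. The sources used here do not say whether reads were counted by strand, so reads over such shared bases cannot be assigned with certainty.

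Against all genes, the numbers of enzymes that moved were not unusual. In KO against WT 3 of the 6 tested enzymes were called higher, beside 38.0% of all tested genes. The other 3 were called lower, beside 48.1%. All 6, and the untested Fdps too, had WT and KO libraries that did not overlap, as had 93.4% of tested genes. The median log2 change of all tested genes was -0.29, and relative to it Hmgcs1 changed by 2.06, Cyp51 by 1.52, Lss by 1.30, Sqle by -0.57, Idi1 by -0.80 and Fdft1 by -2.33. With TPM that median was 0.09 and with quantile normalization 0.03, and each of the 6 enzymes kept its direction and its call on both scales. The marker changes given above, Leydig and Sertoli genes up and pachytene genes down, lay beside these enzyme changes. At the list medians they were larger: the median Leydig marker rose 25.2-fold and the median pachytene marker fell 35.0-fold. The pachytene marker Sycp3 fell 1.51-fold, less than Sqle, Idi1 and Fdft1.

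The order of the enzymes changed between genotypes. By FPKM, which is per length, Fdft1 led in WT and EE_KO, followed by Sqle and Idi1, then by Hmgcs1 and Cyp51, which overlapped each other, then Lss and Fdps. In KO Hmgcs1 led, followed by Cyp51, Fdft1 and Sqle, then by Idi1 and Lss, which overlapped, and by Fdps. Other neighbours in these orders did not overlap. FPKM here uses the merged exons of all annotated transcripts, which for Lss span 10787 bases against 4667 in its longest coding transcript. Scaled to the longest coding transcript, the orders of WT and EE_KO had Hmgcs1 above Cyp51 and were otherwise the same, while in KO Sqle (18.5) passed Fdft1 (17.6) and Lss (12.0) passed Idi1 (6.88).

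Fdft1 made up 69.4% and 64.3% of the summed FPKM of the 7 enzymes in the WT libraries, 16.9% and 19.2% in KO and 64.7% and 66.1% in EE_KO. Hmgcs1 made up 4.54% and 6.14% in WT, 33.9% and 35.0% in KO and 6.13% and 4.58% in EE_KO. The ratio of Fdft1 to Hmgcs1 within a library, which no scaling of that library changes, was 15.3 and 10.5 in WT, 0.498 and 0.548 in KO and 10.5 and 14.4 in EE_KO. The ratio of Sqle to Cyp51 was 2.51 and 2.10 in WT, 0.414 and 0.554 in KO and 1.95 and 2.02 in EE_KO. An exact two-sided permutation test of 2 against 2 cannot go below p = 0.333, so these ratios carry no test.

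**Figure D2:**
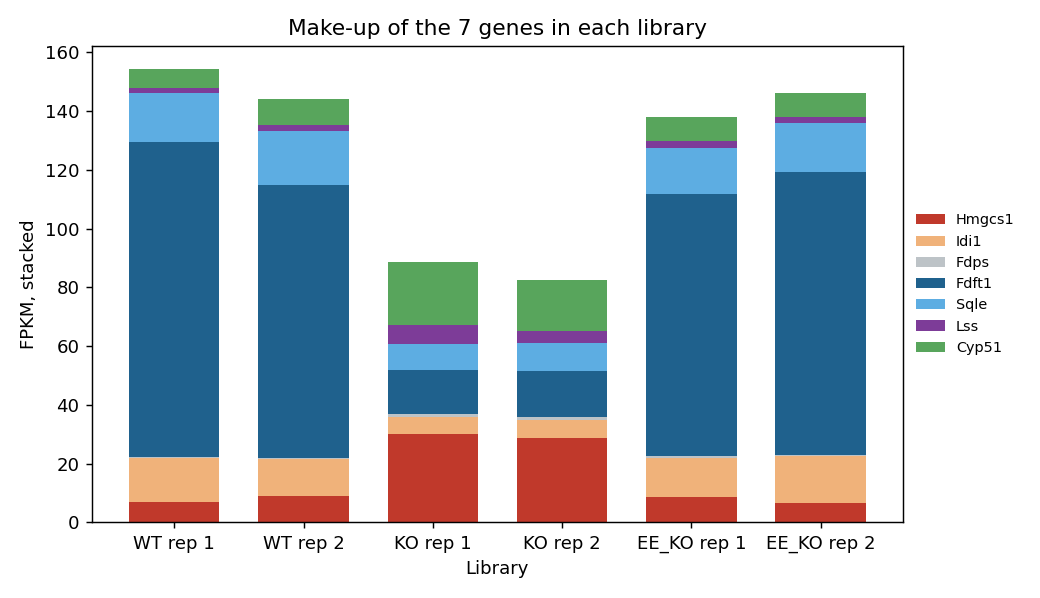
Stacked FPKM of the 7 enzymes in each library, with 1 bar per library and 1 colour per gene. Fdft1 fills most of the WT and EE_KO bars (64.3% to 69.4%) and 16.9% and 19.2% of the KO bars, where Hmgcs1 takes 33.9% and 35.0%.

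In EE_KO no enzyme was called different from WT by limma, and none had an unadjusted p under 0.05. Hmgcs1 stood at 95.6% of WT (7.58 ± 1.24 FPKM), a log2 change of -0.06 (SE 0.15, adjusted p = 0.969). Fdft1 stood at 93.0% (92.9 ± 5.26), with -0.10 (SE 0.11, adjusted p = 0.906), and Sqle at 92.7% (16.2 ± 0.421), with -0.10 (SE 0.12, adjusted p = 0.908). Idi1 was at 106% (14.7 ± 1.57), Cyp51 at 106% (8.16 ± 0.00721) and Lss at 109% (2.20 ± 0.0147), with adjusted p of 0.941, 0.955 and 0.963 in limma. Of all genes 0.0455% were called in this comparison. WT and EE_KO libraries did not overlap for 2 of the 6 tested enzymes, Sqle and Lss, and for 36.5% of all tested genes.

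EE_KO against KO shares the KO libraries with the first comparison and the EE_KO libraries with the second. Idi1 (1.17, SE 0.14), Fdft1 (2.52, SE 0.11) and Sqle (0.75, SE 0.12) were higher on the log2 scale. These were 3 of the 6 tested enzymes, beside 47.8% of all tested genes called higher. Hmgcs1 (-1.83, SE 0.15), Lss (-0.93, SE 0.19) and Cyp51 (-1.14, SE 0.17) were lower, 3 of 6 beside 37.8% called lower. The largest adjusted p of limma among these 6 was that of Lss, 0.00206.

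Promoter sequences from RefSeq (GRCm38.p6, 250 bases before to 50 after the start site) were at hand for 4 of the 7 enzymes, 3 that rose in KO (Hmgcs1, Lss, Cyp51) and 1 that fell (Idi1). They are printed because the enzymes of a pathway with a shared regulator moved in opposite directions. Capitals mark matches, on either strand, to the sterol regulatory element TCACNCCAC that SREBP binds, the CCAAT box CCAAT, the cAMP response element TGACGTCA or the GC box GGGCGG; no marked matches overlap. The windows are chr13:119690101-119690400 (plus strand) for Hmgcs1, chr10:76531355-76531654 (plus) for Lss, chr5:4104648-4104947 (minus) for Cyp51 and chr13:8885356-8885655 (plus) for Idi1.
Hmgcs1: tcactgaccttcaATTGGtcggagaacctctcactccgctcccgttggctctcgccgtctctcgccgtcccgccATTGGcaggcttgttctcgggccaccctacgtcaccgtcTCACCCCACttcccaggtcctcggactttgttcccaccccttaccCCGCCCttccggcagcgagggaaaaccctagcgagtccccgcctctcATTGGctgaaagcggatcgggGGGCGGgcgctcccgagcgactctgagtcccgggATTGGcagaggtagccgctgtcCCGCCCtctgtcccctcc
Lss: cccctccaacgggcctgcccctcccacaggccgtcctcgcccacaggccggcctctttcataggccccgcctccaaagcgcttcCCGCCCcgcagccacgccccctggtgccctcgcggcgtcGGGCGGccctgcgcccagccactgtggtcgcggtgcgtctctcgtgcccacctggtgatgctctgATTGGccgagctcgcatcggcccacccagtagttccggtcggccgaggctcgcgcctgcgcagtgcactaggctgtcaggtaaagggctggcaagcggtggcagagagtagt
Cyp51: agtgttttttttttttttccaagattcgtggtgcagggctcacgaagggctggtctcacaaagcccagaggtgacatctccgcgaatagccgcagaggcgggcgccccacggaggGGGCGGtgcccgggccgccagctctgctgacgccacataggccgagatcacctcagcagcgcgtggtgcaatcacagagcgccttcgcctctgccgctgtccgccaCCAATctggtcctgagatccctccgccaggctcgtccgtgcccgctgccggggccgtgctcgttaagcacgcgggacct
Idi1: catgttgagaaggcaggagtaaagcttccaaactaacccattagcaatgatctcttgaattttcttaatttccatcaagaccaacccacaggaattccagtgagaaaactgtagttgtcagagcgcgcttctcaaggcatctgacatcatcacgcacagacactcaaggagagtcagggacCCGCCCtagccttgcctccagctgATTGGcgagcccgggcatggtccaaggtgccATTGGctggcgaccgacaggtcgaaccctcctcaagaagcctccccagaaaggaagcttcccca

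Hmgcs1 alone of the 4 held the sterol regulatory element as spelled here, 137 bases before the start site, a sequence found in 1.24% of the 32851 RefSeq promoters of this length. It also held 4 CCAAT boxes, against 2 in Idi1 and 1 each in Lss and Cyp51; 37.4% of promoters held at least 1. Each of the 4 had a GC box, as had 35.7% of promoters, and none had the cAMP response element, which 1.79% had. Idi1, which fell, thus held the same CCAAT and GC box letters as the 3 that rose. A match describes the letters in this window and says nothing of whether a factor binds. Only the letters given were sought, so an element spelled otherwise would be missed.

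The other genes of sterol synthesis leaned to higher levels in KO. Of the 14 other genes in the mevalonate and squalene-to-cholesterol lists, all of them tested, 12 were called higher, 1 lower and 1 neither (median log2 change 1.68, against -0.29 for all tested genes). Over all tested genes 38.0% were called higher and 48.1% lower. Of the 14, 3 reached a mean of 1 FPKM only through KO and so had to be higher there: Msmo1, Hsd17b7 and, chosen after its values were seen, Dhcr7. With the 7 enzymes included, 4 of 6 tested genes of the mevalonate arm were called higher and 1 lower, and 11 of 14 from squalene on were called higher and 3 lower. Idi1, Fdft1, Sqle and Lbr were the 4 of 20 tested synthesis genes that fell against the rest. Sqle follows Fdft1 in the pathway, and Fdps, 2.43-fold higher in KO but not tested, lies between Idi1 and Fdft1.

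**Figure D3:**
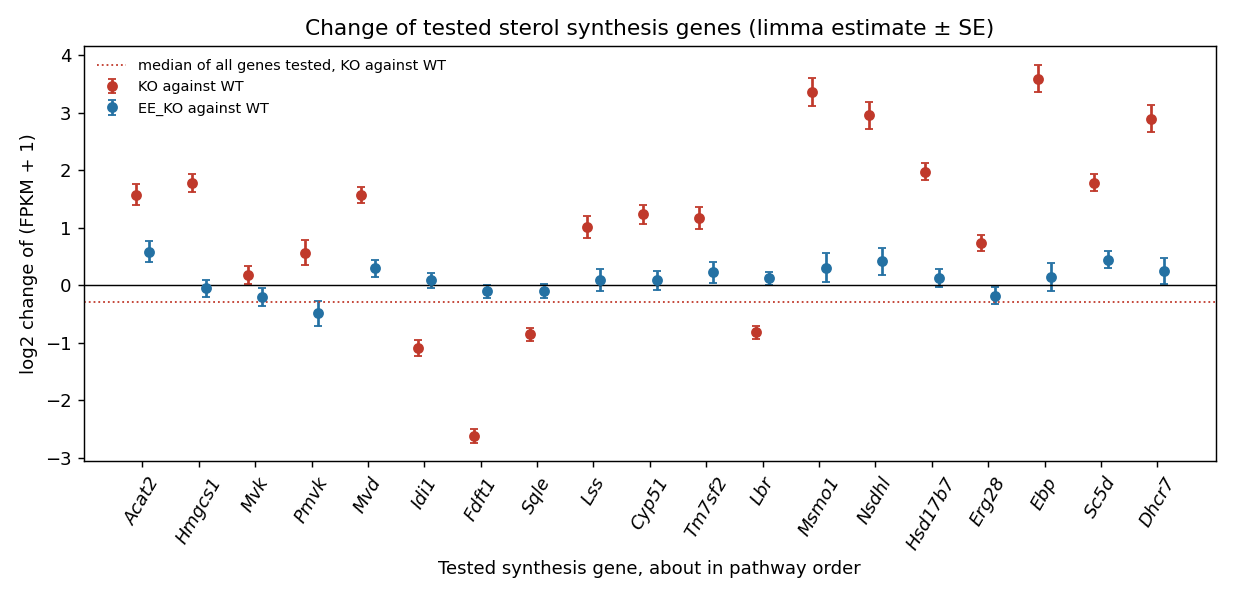
log2 change of FPKM + 1 (limma estimate ± SE, 2 libraries per group) of tested synthesis genes, about in pathway order, for KO against WT (red) and EE_KO against WT (blue), with the median of all genes tested in KO against WT as a dotted line. Idi1, Fdft1, Sqle and Lbr are the genes whose red points lie below 0, while the blue points lie between -0.49 and 0.58.

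Upstream of Idi1, Mvd, which makes isopentenyl diphosphate, rose from 2.34 ± 0.158 to 8.90 ± 0.0174 FPKM (log2 change 1.57, SE 0.14), and Acat2, which makes acetoacetyl-CoA, from 4.64 ± 0.428 to 15.9 ± 2.80 (1.57, SE 0.18). Downstream of Cyp51, Msmo1, the C4 methyl sterol oxidase, went from 0.632 ± 0.384 to 15.6 ± 1.92 FPKM (3.36, SE 0.25) and Hsd17b7, the 3-keto reductase, from 0.740 ± 0.0218 to 5.85 ± 0.684 (1.97, SE 0.15). Lbr, a sterol reductase that also anchors chromatin at the nuclear envelope, fell from 14.1 ± 0.105 to 7.58 ± 0.222 (-0.82, SE 0.11, adjusted p = 0.000205 in limma).

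The X-linked genes of the lists are given apart. Ebp, the sterol isomerase, read 2.63 and 2.15 FPKM in WT, 38.4 and 41.0 in KO and 3.87 and 1.85 in EE_KO (log2 change in KO 3.59, SE 0.24, adjusted p = 3.06e-06 in limma). Nsdhl, the C4 decarboxylase, read 0.951 and 0.903 FPKM in WT, 15.8 and 12.2 in KO and 2.23 and 1.05 in EE_KO (2.95, SE 0.23, adjusted p = 7.19e-06 in limma). Mbtps2, the protease that releases SREBP, was too low to be tested, at 0.353 and 0.255 FPKM in WT and 2.72 and 1.96 in KO. None of the 7 enzymes is X-linked.

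Of the sensors and regulators, 8 of 11 tested were called higher and 3 lower, beside 38.0% and 48.1% of all tested genes. Scap, the escort of SREBP, went from 1.88 ± 0.0267 to 21.9 ± 0.178 FPKM, Srebf1, which encodes SREBP-1, from 1.77 ± 0.385 to 16.6 ± 1.16, and Insig1, which retains SREBP, from 3.94 ± 0.677 to 16.9 ± 0.840. The 3 that fell were Rnf139, a ubiquitin ligase of the endoplasmic reticulum (48.4 ± 1.91 to 6.06 ± 0.749), Nr1h3, the oxysterol receptor LXR alpha (6.41 ± 0.296 to 1.85 ± 0.0438), and Insig2 (26.98 ± 3.32 to 14.8 ± 3.44). The Insig paralogues thus moved in opposite directions, with log2 changes of 1.87 (SE 0.14) and -0.84 (SE 0.17, adjusted p = 0.00160 in limma).

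Uptake and transport genes were called higher in 10 of 12 tested and lower in 1, beside 38.0% and 48.1% of all tested genes. Of these 10, 2 reached a mean of 1 FPKM only through KO. Scarb1, the HDL receptor, rose from 7.43 ± 0.441 to 33.9 ± 2.64 FPKM, Scarb2 of lysosomes from 1.83 ± 0.00692 to 21.2 ± 0.846 and Npc2, the lysosomal cholesterol carrier, from 7.96 ± 0.284 to 27.5 ± 1.24. Gramd1b, a sterol carrier at membrane contacts, stood at 45.5 ± 4.75 in WT and 30.03 ± 5.31 in KO (-0.59, SE 0.14, adjusted p = 0.00511 in limma), but this call was lost with TPM (-0.16) and the sign turned with quantile normalization (0.019).

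Genes of storage, efflux and oxidation were called higher in 5 of 8 tested and lower in 3, beside 38.0% and 48.1% of all tested genes. But 3 of these 5, Cyp27a1 among them, reached a mean of 1 FPKM only through KO. Soat1, which esterifies cholesterol, rose from 7.72 ± 1.22 to 34.4 ± 2.52 FPKM, Abca1, which exports it, from 1.52 ± 0.759 to 32.2 ± 11.05, and Cyp27a1, a sterol hydroxylase, from 0.271 ± 0.0819 to 6.58 ± 1.52. Lipe, which frees cholesterol from its esters, fell from 13.9 ± 4.51 to 2.17 ± 0.0582 and Cyp46a1, another sterol hydroxylase, from 5.50 ± 0.215 to 2.42 ± 0.617. Abcg8, a sterol exporter subunit, fell from 3.27 ± 0.0639 to 0.0228 ± 0.0112 FPKM. It reached a mean of 1 FPKM only through WT, which favours lower values elsewhere. It was the 1 gene of the 6 lists called in EE_KO against WT, at 0.703 ± 0.0873 FPKM (log2 change -1.33, SE 0.14, adjusted p = 0.0427 in limma), a call that 12 of 15 alternatives did not give (limma adjusted p 0.0257 to 0.450 over all 15).

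Branches of the pathway that lead away from sterols were called higher in 6 of 9 tested and lower in 2. Of all tested genes 38.0% were higher and 48.1% lower. Coq2 of ubiquinone synthesis rose from 4.90 ± 0.122 to 15.0 ± 0.0515 FPKM, Fntb, a farnesyltransferase subunit, from 2.49 ± 0.106 to 6.61 ± 0.187 and Nus1 of dolichol synthesis from 11.2 ± 0.389 to 19.7 ± 0.174. Icmt, which methylates prenylated proteins, fell from 53.0 ± 2.68 to 17.3 ± 0.733 (-1.56, SE 0.10).

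**Figure D4:**
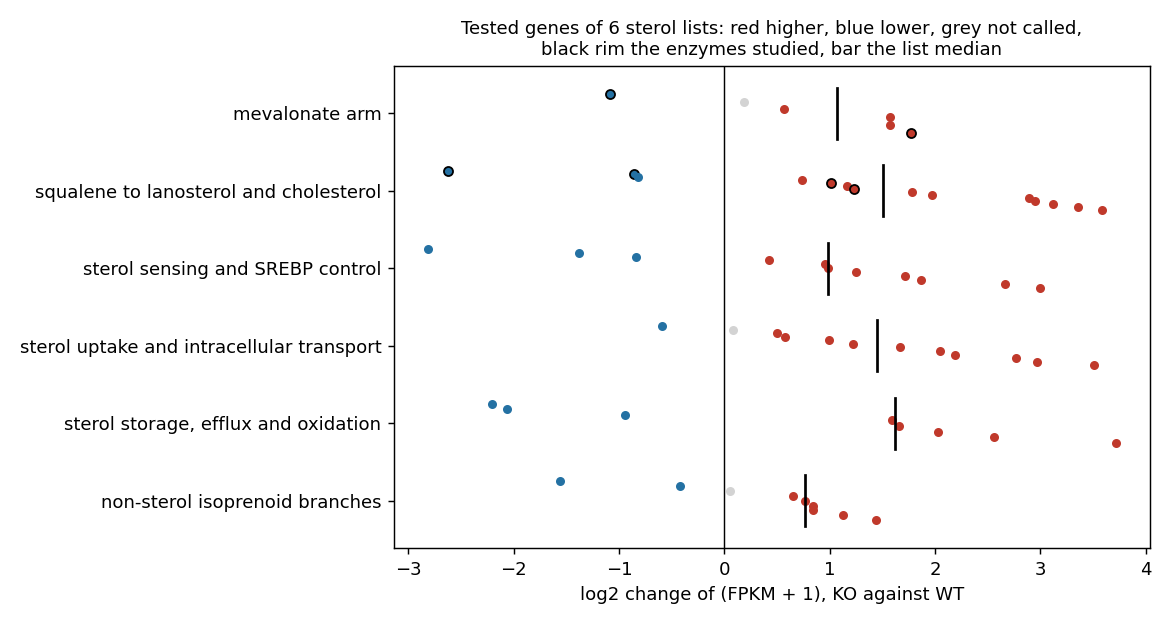
log2 change of FPKM + 1 in KO against WT of the 60 tested genes of 6 sterol lists, with 1 point per gene (red called higher, blue called lower, grey neither), a black rim for the enzymes followed here and a bar at each list median. The 6 list medians lie between 0.76 and 1.62, and Fdft1 and Rnf139 lie farthest to the left.

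Over the 6 lists together, 44 of 60 tested genes were called higher in KO and 13 lower (median 1.15), beside 38.0% higher, 48.1% lower and a median of -0.29 over all tested genes. Of the 60, 8 reached a mean of 1 FPKM only through KO and 1 only through WT. The lists were chosen with earlier results of these data known. Markers of Leydig and Sertoli cells rose beside all 6 lists.

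The EE_KO libraries differed from each other in those markers: 17 of 18 Leydig and Sertoli markers were higher in EE_KO replicate 1 than in replicate 2, with a median ratio of 1.88 (0.809 to 3.07). The 7 enzymes showed ratios of 0.859 to 1.59 (median 0.991), the highest being that of Fdps. Cyp51, at 8.17 and 8.16 FPKM, and Lss, at 2.19 and 2.21, differed little between these libraries. Some later steps of synthesis differed more: the ratio was 2.09 for Ebp, 2.11 for Nsdhl and 2.33 for Msmo1. Others lay in the range of the 7 enzymes, with 0.919 for Lbr and 1.18 for Hsd17b7. Msmo1 differed between the WT libraries too, with replicate 2 at 2.51-fold replicate 1. Whether these ratios go with the marker difference was not tested.

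The genes whose pattern over the 6 libraries was most like that of each enzyme were sought among 11526 tested protein-coding genes, by the root mean square difference of log2(FPKM + 1) profiles centred on their means. For Hmgcs1 they were Acbd5 (0.042), Ppp1r21 (0.051) and Gtpbp6 (0.054). Cyp51 was closest to Rexo1 (0.030), Kremen1 (0.035) and Nradd (0.047), and Lss to Tjp1 (0.035), Cs (0.051) and Rptor (0.056). Among the enzymes that fell, Fdft1 was closest to Ccdc171 (0.035), Cntnap2 (0.035) and Glt8d1 (0.038), Idi1 to Foxp1 (0.028), Glmn (0.034) and Tmem50b (0.034), and Sqle to Rbm4b (0.042), Zfp287 (0.045) and Zmat5 (0.052). Fdps, below the filter, was closest to Adam15 (0.046), Mettl1 (0.052) and Lyrm4 (0.054). No other gene of the sterol lists was among these 21, and the 6 libraries mostly contrast KO with the rest, so many genes share such a profile.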

How the data were processed

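Each library came as deposited FPKM per Ensembl gene, the unit named per the file headers. The submitters' processing notes name GRCm38 and mm10; the sources used here do not give the aligner, counter or annotation. GENCODE M21 gave symbols, positions and exon lengths for 54495 of 54532 genes. FPKM times exon length gave whole reads (tolerance 0.01) for 96.8% to 97.0% of values above 0 and for every value of the 7 enzymes, and 1 read over 2 kb is worth 0.0278 to 0.0357 FPKM.

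Genes with a mean of at least 1 FPKM entered the tests (15368); left out were 533 short RNA genes and 6 repeated symbols. Values of log2(FPKM + 1) from all 6 libraries were fitted together by limma 3.58.1 in R 4.3.3, with trended variance and no replicate block. A gene was called at a Benjamini-Hochberg adjusted p below 0.05. The added 1 FPKM shrinks changes of low genes. Copies were sought with BLAST+ 2.17.0 (95% identity, 100 bases). The limma fit was tested on simulated data in which few genes changed, so that test does not cover data where most genes move. Single results on some genes of the lists are not reported here, though counts and medians include them. Tables and figures used Python 3.11.15.

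The named genes are the 7 enzymes, up to 3 called genes in each direction with the smallest p in each of 6 sterol lists, X-linked list genes, list genes called in EE_KO against WT and the 3 closest profiles per enzyme. The enzymes, lists and 7 marker lists were chosen with earlier results of these data known. Tried besides were TPM, a pseudocount of 0.1 or of 0.5, a filter at 5 FPKM, no filter, quantile normalization, only the compared groups, a replicate block, no trend, each library left out and, chosen after seeing the data, limma's voom on recovered reads.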

Additional observations from a re-analysis of the deposited data

How the results depend on the processing

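The 6 tested enzymes kept their direction and call in both comparisons with the KO libraries under every alternative that tested them (16 each, 15 for Lss, which fell under the filter of 5 FPKM). In KO against WT the log2 changes ranged from 1.63 to 2.29 for Hmgcs1, 1.05 to 1.73 for Cyp51, 0.77 to 1.63 for Lss, -1.21 to -0.75 for Idi1, -2.72 to -2.08 for Fdft1 and -0.93 to -0.47 for Sqle. In EE_KO against WT none was called under any alternative, and without 1 library the sign turned for Hmgcs1 (-0.21 to 0.091), Idi1 (-0.033 to 0.20), Fdft1 (-0.21 to 0.0025) and Cyp51 (-0.090 to 0.27). Gramd1b turned to 0.019 with quantile normalization. List genes called in EE_KO against WT went from 1 to 0 with either other pseudocount, no filter, at least 5 FPKM, TPM, only the compared groups and the replicate block, and were 0 to 0 with a library left out; the cause was not tested. At least 5 FPKM left 39 list genes called in EE_KO against KO, with fewer genes tested. Over all genes, calls in KO against WT went from 13241 to 7704 and in EE_KO against KO from 13155 to 7655 with at least 5 FPKM, again with fewer genes tested. In EE_KO against WT the 7 calls became 4 (pseudocount 0.5), 0 (no filter), 2 (at least 5 FPKM), 2 (TPM), 0 (only the compared groups), 2 (replicate block) and 0 to 19 with a library left out (19 without EE_KO replicate 1, 3 without replicate 2, 1 without either WT library, 0 without either KO library). The labels do not say whether a replicate number marks a shared experiment. Deviations of same-numbered libraries correlated at -0.03 (WT and KO), 0.05 (WT and EE_KO) and 0.09 (KO and EE_KO) over genes. Such values show no strong shared shift but cannot decide whether libraries were paired. The replicate block left the enzymes with 6 calls in each comparison with KO. Depth limits Fdps, with 16 to 77 reads.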
